A study of Homo sapiens with 31 samples.

Results

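The circular RNAs (circRNAs) of STK39 were followed in 15 total RNA libraries made from H9, an established line of human ES cells, during differentiation towards retina. STK39 encodes SPAK, a serine/threonine kinase of the Ste20 family that is switched on by WNK kinases and in turn phosphorylates cation-chloride cotransporters such as SLC12A2 (NKCC1). Members were chosen by position and by having at least 1 back-splice read: they were all back-splices on the minus strand of chromosome 2 with both ends inside a window just wider than the gene, which runs from exon 1 (chr2:169103738-169104105, hg19) to exon 18 (chr2:168810532-168812080). The rule gave 34 back-splices of 55371 in the table, and these held 5112 of 1029205 back-splice reads, 0.497% of the total. All 34 were assigned to STK39, and 0 back-splices on the plus strand fell in the window. The change between days and the response to IGF-1 were not part of the rule, and the 7 members with a single read lie at its lower limit. The locus itself was chosen with earlier results of these data known.

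Undifferentiated cells (day 0) were compared with cells at day 45 and day 90 of an embryoid body protocol, which were grown without (untreated) or with insulin-like growth factor 1 (IGF-1). IGF-1 was given at 5 ng/ml up to day 37 and at 10 ng/ml after that. Each of the 5 conditions had 3 replicate cultures of this single cell line, and cells were harvested without selecting embryoid bodies, so each later library is a mixture of cell types. In such bulk RNA, fewer cells of a type and less RNA per cell cannot be told apart.

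A circRNA forms when a splice donor is joined to an acceptor that lies upstream of it, which closes the exons between them into a ring without free ends. Such rings are resistant to exonucleases and are known to accumulate in cells that divide slowly, neurons among them. A read across the back-splice is the sign of a circRNA in RNA-seq data. It shows the joined exon ends but not the exons inside the ring. The paper states that rare trans-splicing of separate pre-mRNA molecules can give such junctions too, so that circularity needs further evidence in each case. Such evidence was not examined here for STK39, and its members are called circRNAs or rings from their back-splice reads alone. Back-splices are named here by their donor and acceptor exons, so that E14-E9 joins the end of exon 14 to the start of exon 9, with the 18 exons of transcript ENST00000355999 (GENCODE 44 on GRCh37) numbered from the 5′ end.

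The sequence at the join is printed for 8 of the most abundant back-splices, because pairs of them share an acceptor or a donor and can be told apart only by the other side. Lower case letters are the last 20 bases of the donor exon, and capitals are the first 20 bases of the acceptor exon, in RNA sense and read from GRCh37.
E14-E9: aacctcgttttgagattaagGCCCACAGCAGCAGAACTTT
E16-E9: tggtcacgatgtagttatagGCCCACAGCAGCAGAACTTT
E14-E11: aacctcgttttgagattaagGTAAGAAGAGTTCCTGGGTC
E16-E11: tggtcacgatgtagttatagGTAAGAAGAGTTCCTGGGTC
E5-E2: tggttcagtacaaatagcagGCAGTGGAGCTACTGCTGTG
E8-E2: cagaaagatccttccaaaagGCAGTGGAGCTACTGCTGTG
E10-E3: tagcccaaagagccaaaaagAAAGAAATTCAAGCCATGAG
E8-E3: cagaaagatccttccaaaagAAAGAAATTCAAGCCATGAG
E14-E9 spanned chr2:168920010-168986268 and E16-E9 spanned chr2:168869144-168986268, so both ended on the same acceptor and carried the same capitals. E5-E2 spanned chr2:169018297-169038600. All 34 members had an AG just before the acceptor exon and a GT just after the donor exon, the usual ends of an intron. The authors screened against annotated exon junctions, so these bases come with the annotation and are no separate evidence. Exon 1, the first, has no acceptor and exon 18, the last, has no donor, so a back-splice of this transcript could use neither. No member closed a single exon on itself.

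The lead circRNA, circSTK39:E14-E9, is 402 bases long if it holds each of exons 9 to 14, and its letters begin in codon 325 and end in codon 459 of the SPAK reading frame. E5-E2 is 420 bases long with exons 2 to 5 and covers codons 70 to 210, from the N-terminal part of SPAK that holds its kinase domain. For both rings 100 bases on each side of the join are shown, with the acceptor side in capitals, because the join in their middle is found in the ring and not in the linear mRNA.
E14-E9: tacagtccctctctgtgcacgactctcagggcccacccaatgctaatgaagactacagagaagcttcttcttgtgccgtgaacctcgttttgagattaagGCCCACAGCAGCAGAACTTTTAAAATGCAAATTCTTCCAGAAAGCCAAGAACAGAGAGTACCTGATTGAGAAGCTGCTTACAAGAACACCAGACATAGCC
E5-E2: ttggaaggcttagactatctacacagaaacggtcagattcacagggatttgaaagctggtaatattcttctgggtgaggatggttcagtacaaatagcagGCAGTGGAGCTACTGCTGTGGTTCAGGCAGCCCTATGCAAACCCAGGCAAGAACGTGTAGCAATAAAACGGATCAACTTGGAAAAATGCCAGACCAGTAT
Both lengths are multiples of 3, so the frame of the mRNA runs on across the back-splice, and neither ring had a stop codon in that frame with all annotated exons kept. E14-E9 held 1 in-frame ATG and E5-E2 held 4. Such a length was found for 10 of the 34 members and for 3 of the 14 members with at least 75 reads, against 49 of the 136 possible pairs of exons 2 to 17 (36.0%). Those 10 held 2608 reads, of which E14-E9 alone held 1762. This is a description of exon lengths, and no protein was measured.

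Reads were spread over a few back-splices. E14-E9 held 1762 reads (34.5% of the locus), E16-E9 551 (10.8%) and E5-E2 508 (9.94%). E10-E3 (313 reads), E14-E11 (296), E8-E2 (294), E10-E6 (274) and E8-E3 (259) followed, and then E16-E13 (154) and E16-E15 (149), with these first 10 at 89.2% of the reads. A clear step in abundance lay after the 14th member: 14 members had at least 75 reads and held 97.4% of all STK39 back-splice reads, and the next had 25. Reads were counted 10 times or more for 19 members, which could be tested, while the other 15 held 36 reads between them and 7 of these were a single read. In all, 5 members were found in every library and 10 in 1 library alone.

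STK39 was rank 8 of 8094 genes by back-splice reads, although E14-E9 was rank 30 among single back-splices. Among the 163 genes with at least 1000 back-splice reads, the leading back-splice held a median of 59.7% of its gene's reads, and 31 of these genes had a leading share below the 34.5% of STK39. Its 34 structures stood against a median of 19 in those 163 genes, and 218 of all 8094 genes had more than 34.

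**Figure D1:**
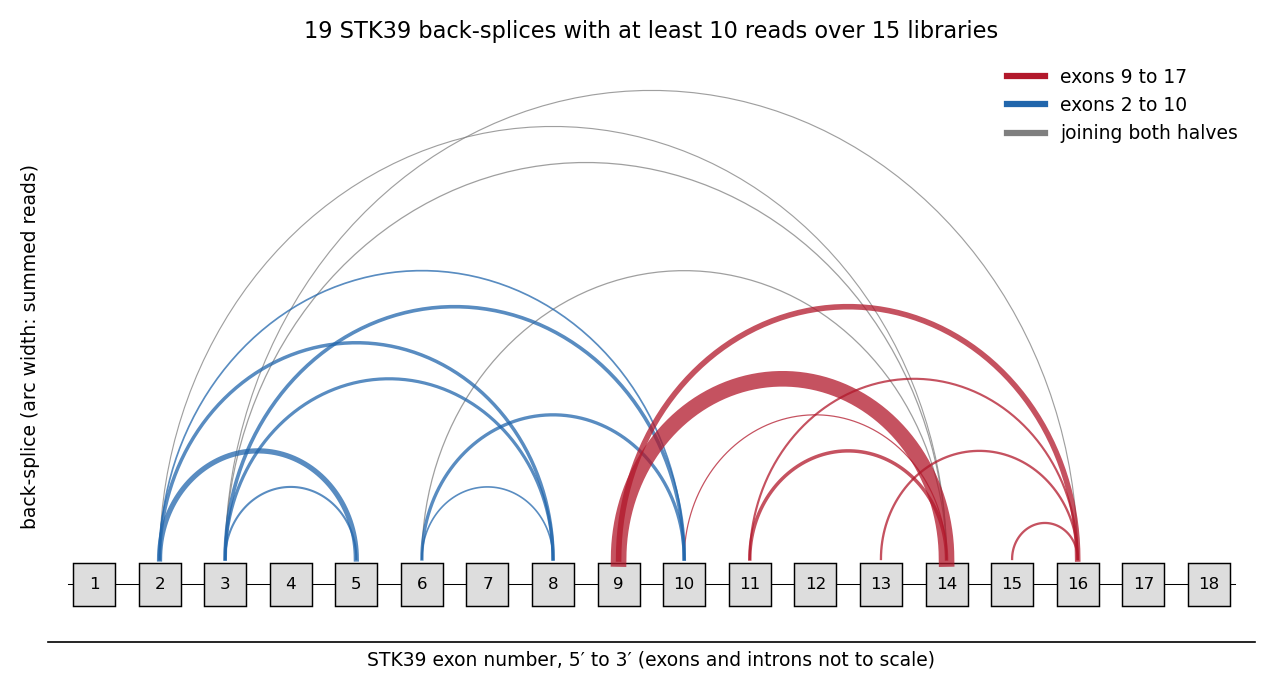
Back-splices of STK39 with at least 10 reads over the 15 libraries, drawn as arcs from acceptor exon to donor exon over the numbered exons, with arcs wider for more summed reads, a minimum width for the rarest and colour by the part of the gene. E14-E9, with 1762 reads, is the widest arc, and the 4 thin grey arcs that join exons 2, 3 or 6 to exons 14 or 16 have 12 to 25 reads each.

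Back-splices fell into 2 neighbouring parts of the gene. Members with their acceptor at exon 9 or later and a donor after exon 10 numbered 14 and held 3087 reads (60.4%). Members with a donor no later than exon 10 numbered 13 and held 1940 reads (37.9%). The 7 members that reached from an acceptor before exon 9 to a donor after exon 10 held 85 reads (1.66%), so joins between both parts were rare. These parts were drawn after the reads had been seen and carry no test.

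The exon ends in use were few. Exons 2, 3, 6, 9, 11, 13 and 15 were the acceptors of 5079 of the 5112 reads, and exons 5, 8, 10, 14 and 16 the donors of 5091. Exon 9 alone was the acceptor of 2317 reads (45.3%) and exon 14 the donor of 2143 (41.9%). Other ends were used rarely: exon 12 was the donor of 11 reads and the acceptor of 0, exon 17 the donor of 5, and exon 7 the acceptor of 1.

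These ends lay beside the long introns of the gene. Of 17 introns, 9 were longer than 5000 bases, with the shortest of these at 8329 bases and the longest of the others at 4340. A long intron both before the acceptor exon and after the donor exon was present for 36 of the 136 possible pairs of exons 2 to 17 (26.5%), for 25 of the 34 members, and for each of the 14 members with at least 75 reads. Those 25 members held 5075 of the 5112 reads (99.3%), and the 9 other members held 37. The intron before exon 9 was 8329 bases long and the one after exon 14 was 46404. The limit of 5000 bases was chosen after the values were seen, and intron length was not used by the rule.

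**Figure D2:**
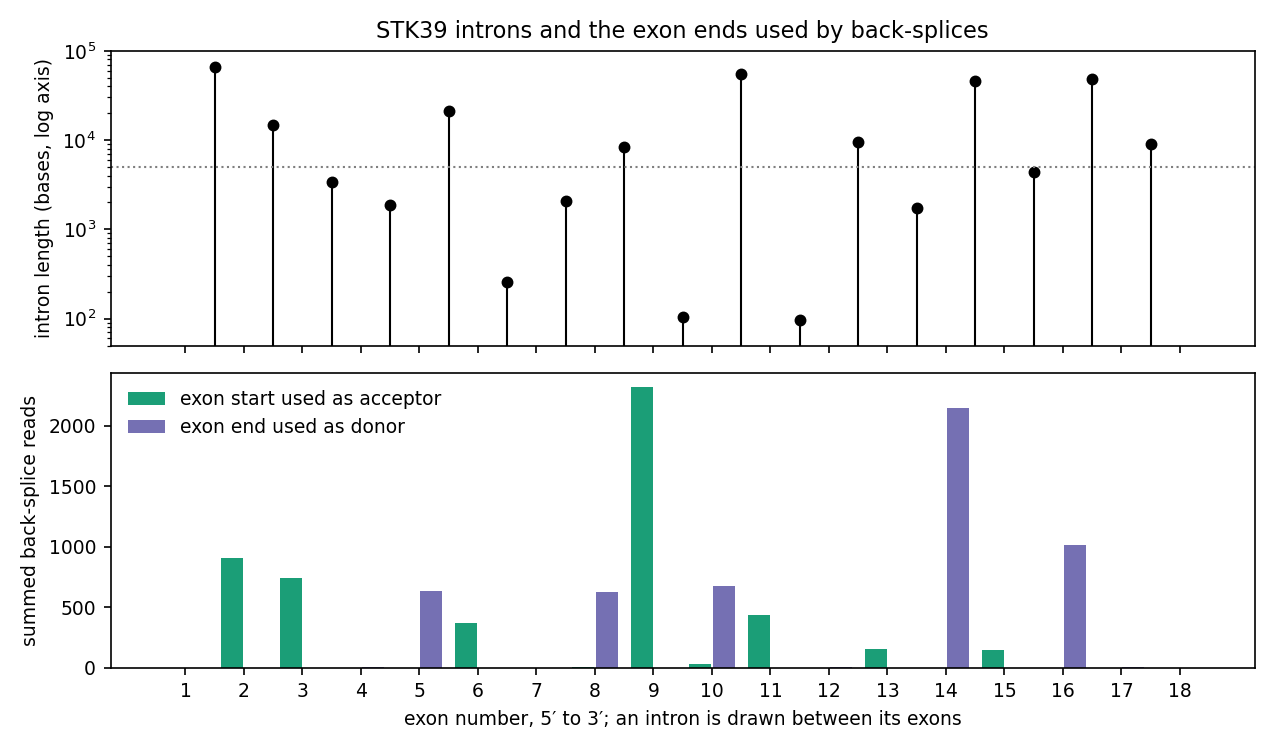
Upper panel, the length of each STK39 intron on a log axis, drawn between the exons it separates, with a dotted line at 5000 bases. Lower panel, summed back-splice reads that used the start of each exon as acceptor or its end as donor. Exon 9 (2317 reads as acceptor) and exon 14 (2143 as donor) stand highest, and bars are close to 0 where an exon end faces an intron under the line.

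Inverted matches, in which the intron on one side can pair with the intron on the other, were looked for in the 1000 bases beyond each exon end. The introns of 97, 103 and 258 bases are shorter than this, so windows there ran on into neighbouring exons. A match by blastn with an E value of at most 1e-05 was found for 0 of the 34 members and for 4 of the 102 pairs without a member. Longer stretches of these introns were not searched, and the result says only that no such match lay in these windows.

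STK39 back-splice reads were far higher in differentiated cells than in ES cells. At day 0 the 3 libraries had 24, 24 and 23 reads, or 0.192, 0.169 and 0.164 reads per 1000000 sequenced reads (RPM). Untreated day 45 libraries had 4.81, 4.14 and 2.53 RPM, and untreated day 90 libraries 2.24, 2.88 and 2.90 RPM. Every later library was thus above every day 0 library, by a wide gap. Means were 0.175 RPM ± 0.0151 (SD, n = 3) at day 0, 3.83 ± 1.17 at day 45 and 2.67 ± 0.376 at day 90. Which of 116522226 and 160607052 sequenced reads belongs to untreated day 90 replicate 1 and which to replicate 2 is not known. Both were given the mean, so their RPM values and the untreated day 90 SD are approximate here and below. From pooled reads the level was 21.4 times that of day 0 at day 45 (95% counting interval 16.9 to 27.6) and 15.4 times at day 90 (12.1 to 19.8).

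In a fit of back-splice reads summed per gene, the STK39 difference from day 0 was a log2 fold change of 4.44 ± 0.42 (SE) at day 45, with an adjusted p of 1.68e-23 by edgeR's quasi-likelihood test over 4933 genes, and of 3.93 ± 0.41 at day 90, with an adjusted p of 8.88e-19. Most genes shared the direction. At day 45, 63.5% of all genes tested were called higher and 0.365% lower, and the median log2 change of all genes was 2.81. At day 90 these values were 45.4%, 0.649% and 2.14. Relative to that median STK39 stood 1.64 higher at day 45 and 1.78 higher at day 90 on the log2 scale. With library sizes from TMM on back-splice totals its change was 2.24 at day 45, 1.41 above the median of that fit, and with DESeq2 size factors it was 1.91 and 1.40 above the median, each still called.

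The share of a library's back-splice reads that came from STK39 does not depend on the number of sequenced reads. It was 0.160%, 0.159% and 0.128% in the day 0 libraries, with a mean of 0.149% ± 0.0180 (SD, n = 3). In the 6 untreated later libraries it lay between 0.416% and 0.723%, with a mean of 0.547% ± 0.114 (SD). The groups did not overlap, and the difference of 0.398 percentage points had p = 0.0119 in a two-sided exact permutation test, the smallest value that 84 regroupings can give. Because STK39 was chosen with earlier results of these data known, this p-value is no independent evidence of a rise.

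**Figure D3:**
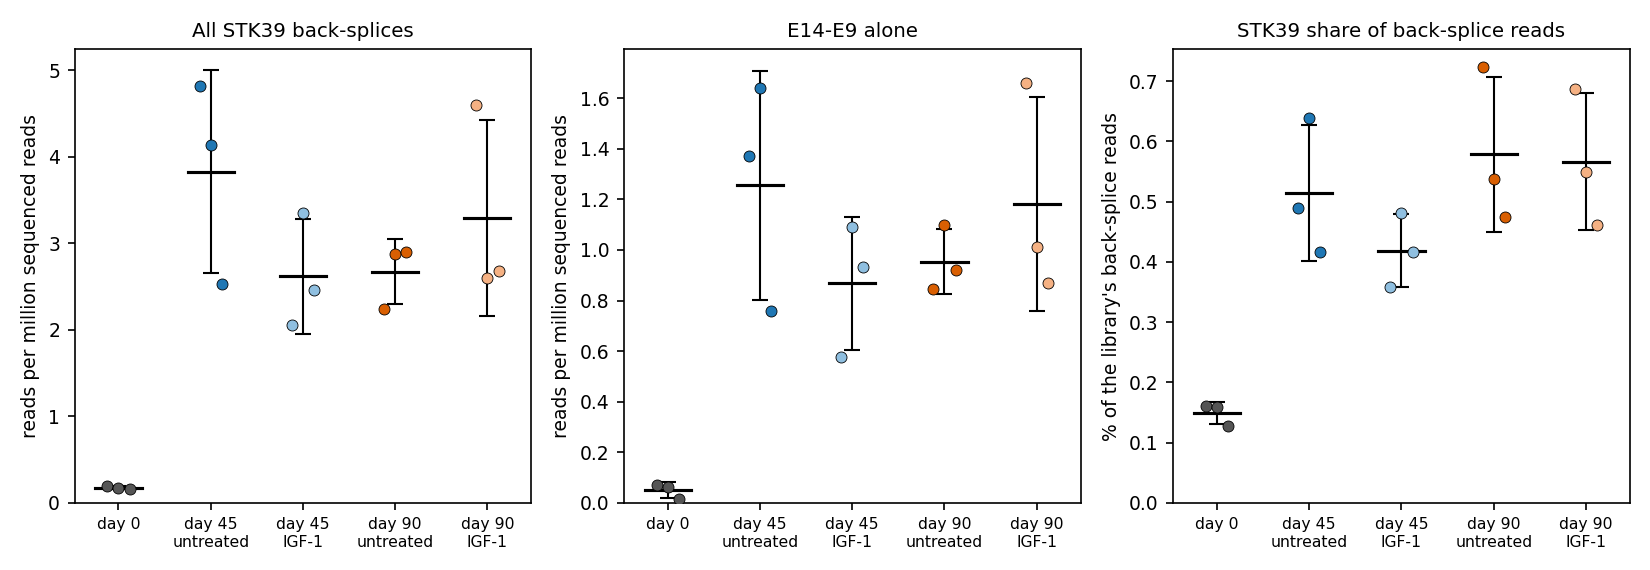
Reads per 1000000 sequenced reads (RPM) of all STK39 back-splices (left) and of E14-E9 alone (middle), and the share of each library's back-splice reads that came from STK39 (right), by condition. Points are libraries, horizontal lines means and error bars SD (n = 3). Day 0 libraries lie at 0.164 to 0.192 RPM in the left panel and every later library at 2.05 RPM or more.

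E14-E9 alone was counted 9, 9 and 2 times at day 0. It was counted 152, 227 and 111 times at untreated day 45 and 117, 152 and 141 times at untreated day 90. In RPM this was 0.0499 ± 0.0312 (SD, n = 3) at day 0, 1.26 ± 0.453 at day 45 and 0.954 ± 0.130 at day 90. All 6 later libraries were above the 3 at day 0. The fitted log2 fold change was 4.64 ± 0.50 at day 45 (edgeR adjusted p of 7.23e-18 over 12498 circRNAs) and 4.25 ± 0.49 at day 90 (adjusted p of 5.45e-15).

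Of the 19 STK39 circRNAs that could be tested, 16 were higher at day 45 than at day 0 by edgeR at an adjusted p under 0.05 and 0 were lower. The share of all 12498 circRNAs called higher in this comparison was 40.9%, and 0.256% were called lower. At day 90, 13 of the 19 were higher and 0 lower, beside 21.7% and 0.328% of all circRNAs. Shares over all circRNAs are not a like comparison, because 14 of the 19 members had at least 75 reads. Among circRNAs with at least 50 summed counts, fitted on their own, 3024 of 3469 were called higher at day 45 and 2375 of 3469 at day 90. In the main fit each of those 14 members was called higher at day 45, and all but E10-E2 and E8-E6 at day 90. The median log2 change of the 19 was 3.97 at day 45 against 2.87 for all circRNAs, and 3.45 at day 90 against 2.33. With members that had no read at day 0 set to their lower bound, or left out where no fold can be given, the medians were 3.76 and 3.29. The 3 members left out at day 45 and the 2 at day 90 had few reads at that time. The medians of all circRNAs were not treated in this way, so they are no like comparison. Each of the 3 later libraries was above every day 0 library for 15 of the 19 at each time, beside 46.2% of all circRNAs at day 45 and 32.4% at day 90. A member had to reach 10 reads over all libraries to be tested, which it could do through the later libraries alone. That was so for 6 of the 19, which had no read at day 0, so their change could not be downwards. Among these, E16-E11, E14-E3 and E14-E6 were called at day 45, and E16-E11 and E14-E3 at day 90. Their calls are no support for a rise.

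Calls depended on what the later libraries were scaled to. With TMM on back-splice totals, 10 of the 19 were called higher at day 45 (6.27% of all circRNAs) and 9 at day 90 (5.9%). With DESeq2 size factors these were 5 (2.57%) and 6 (2.88%), and E14-E9, E16-E9, E14-E11 and E16-E11 were among them at both times. DESeq2's Wald test called 14 (31.3%) and 12 (19.6%), and without a count minimum edgeR called 14 (5.71%) and 12 (2.97%). Each member called at a given time kept a fitted change above 0 at that time under both other scalings. RNA integrity numbers were 9.8 to 10 at day 0, 7.6 to 9.1 at day 45 and 7.1 to 8.9 at day 90, so RNA quality moved with day, and its part in the result was not tested.

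Among rings from the 3′ part of the gene, E16-E9 was counted 0, 1 and 1 times at day 0 and 48, 68 and 32 times at untreated day 45. This was a ratio of 76.2 in pooled reads, with a wide counting interval of 20.7 to 635. E14-E11 was counted once at day 0 and 94 times at untreated day 45 (ratio 96.8, interval 16.9 to 3862). E16-E11 had no read at day 0 against 32 at day 45 and 37 at day 90, which is at least 10.98-fold and at least 11.7-fold higher when day 0 is set to 3 reads over the group. For all 3 the day 0 level rests on 2 reads or fewer, so the size of the change is poorly fixed although each was called at both times. E16-E13 (0, 0 and 4 reads at day 0, and 15, 17 and 10 at day 45) had a log2 change of 3.35 ± 0.75, but all of its day 0 reads came from replicate 3 and without that library it had no read at day 0. E16-E15 rose from 1 read to 41 (ratio 42.2, interval 7.16 to 1707).

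In the 5′ part, E5-E2 was counted 4, 3 and 3 times at day 0, 55, 43 and 44 times at untreated day 45 and 23, 36 and 62 times at untreated day 90. Its log2 change was 3.85 ± 0.56 at day 45 (edgeR adjusted p of 3.75e-10) and 3.45 ± 0.56 at day 90 (adjusted p of 6.32e-08). E8-E2 had a log2 change of 4.33 ± 0.64 at day 45 and 3.50 ± 0.66 at day 90, E10-E3 of 4.21 ± 0.65 and 3.41 ± 0.67, and E10-E6 of 3.97 ± 0.63 and 2.68 ± 0.67. E8-E3 rose by 3.66 ± 0.62 and 2.66 ± 0.65 on the log2 scale. Single libraries weighed on these sizes at day 45: E8-E2 stood at 5.82 without day 0 replicate 3 and 3.75 without day 0 replicate 2, E10-E3 at 4.94 without day 0 replicate 1 and 3.63 without day 0 replicate 2, and E8-E3 at 2.73 without day 45 replicate 1. E5-E3 was the lowest called at day 90, with a log2 change of 2.57 ± 0.80. E10-E2 and E8-E6, with 3 and 2 reads at day 0, were called at day 45 and not at day 90.

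The 4 tested rings that join both parts of the gene, E14-E3, E14-E6, E16-E3 and E14-E2, had no read at day 0 and 12 to 25 reads in all. All 4 reached the count minimum through later libraries alone, so a call could only be upwards and is no support for a rise. E14-E3, with 6, 1 and 0 reads at untreated day 45 and 1, 4 and 4 at untreated day 90, was called at both times. Its day 45 call rested mainly on the 6 reads of replicate 1, and replicate 3 had no read, like day 0. E14-E6, with 5, 2 and 2 reads at day 45, was called there and not at day 90. E16-E3 and E14-E2 were called at neither time, nor was E14-E10 of the 3′ part, with 23 reads in all; these 3 were named after their values were seen. With no read at day 0, fitted folds of these 5 are not given.

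**Figure D4:**
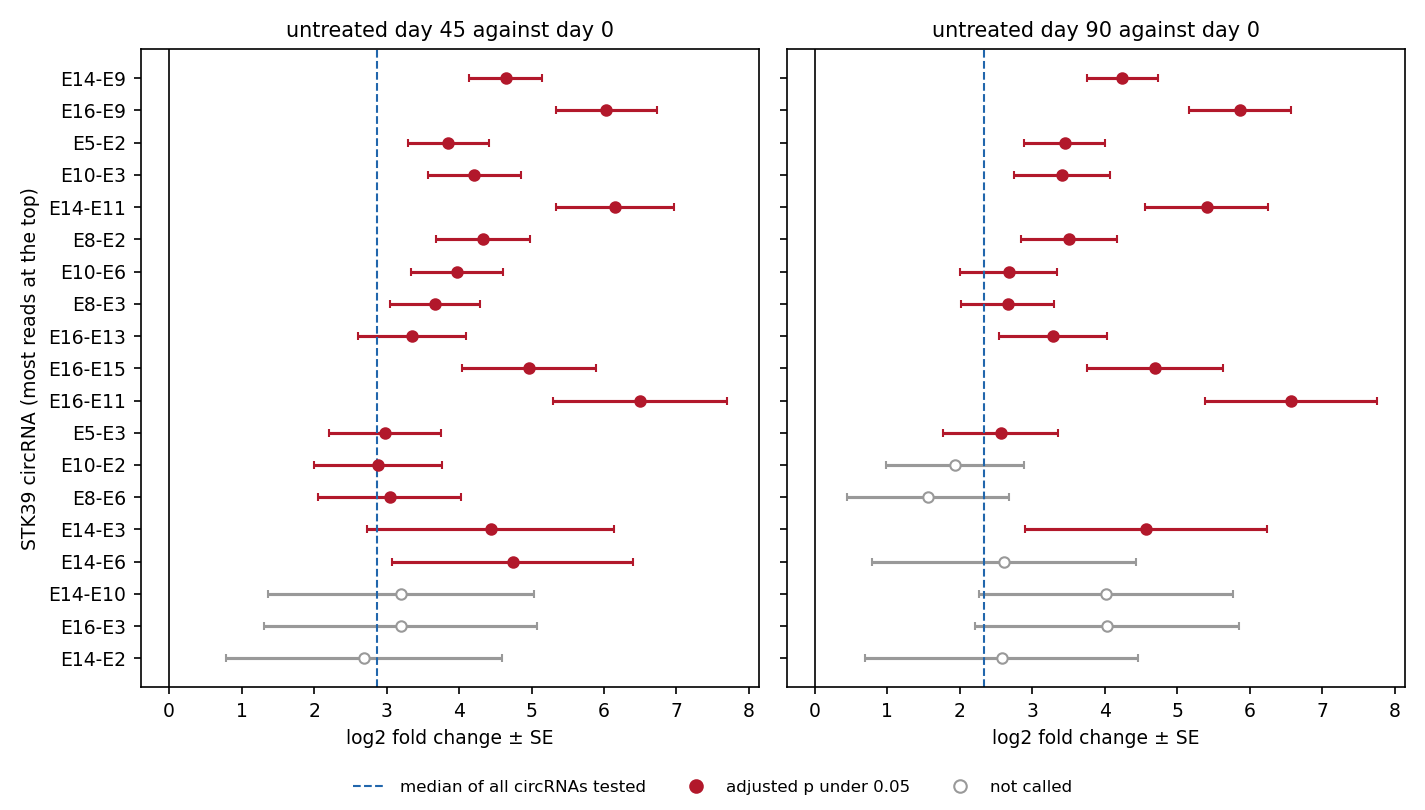
Log2 fold change ± SE from edgeR for the 19 STK39 circRNAs tested, at untreated day 45 (left) and day 90 (right) against day 0, ordered by summed reads, with filled points for an adjusted p under 0.05 and a dashed line at the median of all circRNAs tested. E14-E9, with the most reads, lies at 4.64 and 4.25, and points of members with 3 reads or fewer at day 0 depend on the fit's prior count.

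Between day 45 and day 90 without IGF-1 no member passed the test. The summed STK39 level had a log2 change of -0.52 ± 0.35 (95% interval -1.21 to 0.17, edgeR adjusted p = 0.465), the median over all genes was -0.64, and 0.385% of genes were called. By edgeR 0 of the 19 members were called, beside 0.08% of all circRNAs, with 2 at an unadjusted p under 0.05 and 0 called by DESeq2. These 2 were E10-E6 (log2 change -1.30 ± 0.49, adjusted p = 0.405) and E8-E3 (-1.003 ± 0.48, adjusted p = 0.486). The sign of the summed change turned to 0.16 with TMM and to 0.21 with DESeq2 size factors, so its direction is not fixed by these data.

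IGF-1 treatment gave no called difference in STK39 circRNAs. At day 45 the treated libraries had 2.05, 3.35 and 2.45 RPM against 4.81, 4.14 and 2.53 untreated, and these ranges overlapped. At day 90 the treated libraries had 4.59, 2.60 and 2.68 RPM against 2.24, 2.88 and 2.90, which overlapped as well. The log2 change of the summed level was -0.55 ± 0.35 at day 45 (95% interval -1.24 to 0.14, edgeR adjusted p = 0.993) and 0.30 ± 0.35 at day 90 (-0.39 to 0.99, adjusted p = 1.0), where 0.0203% of all genes were called at each time. The day 90 value turned to -0.0482 with DESeq2 size factors and to -0.0174 without day 90 IGF-1 replicate 1, so its direction is not fixed either. The difference between both effects was 0.85 ± 0.50 (-0.13 to 1.82, adjusted p = 0.929). These intervals reach past a log2 change of 0 on both sides.

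Of the 19 members, 0 were called by edgeR at day 45 (0.016% of all circRNAs) and 0 at day 90 (0.008%), with 1 at an unadjusted p under 0.05 at each time, and DESeq2 called 0 at both. At day 45 this was E8-E2, with 10, 20 and 20 reads against 35, 36 and 32 (log2 change -1.02 ± 0.48, adjusted p = 1.0). At day 90 it was E8-E6, with 10, 8 and 10 reads against 3, 1 and 3 (1.94 ± 0.77, adjusted p = 1.0). E10-E6 had the smallest adjusted p for a difference between both IGF-1 effects, with 20, 17 and 10 treated against 34, 30 and 31 untreated reads at day 45 and 27, 24 and 32 against 7, 13 and 23 at day 90 (difference 1.89 ± 0.69, adjusted p = 0.768). This difference did not pass the test over all circRNAs, and 0 members were called for this difference, beside 0.0% of all circRNAs, with 2 at an unadjusted p under 0.05 and 0 called by DESeq2.

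Ordered by mean, the levels were 3.83 RPM ± 1.17 at untreated day 45, 3.29 ± 1.13 at day 90 with IGF-1, 2.67 ± 0.376 at untreated day 90, 2.62 ± 0.663 at day 45 with IGF-1 and 0.175 ± 0.0151 at day 0 (SD, n = 3 each). Neighbours among the first 4 overlapped in their libraries, and the step to day 0 did not.

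E14-E9 was the leading STK39 back-splice in 14 of the 15 libraries, and in the remaining one, day 0 replicate 3, it was rank 5 with 2 of 23 reads. Its share of STK39 back-splice reads was 37.5%, 37.5% and 8.70% at day 0, where each value has a wide exact binomial interval (18.8% to 59.4% for the first). In the 6 untreated later libraries it was 28.5% to 39.6%. The means, 27.9% ± 16.6 (SD, n = 3) and 34.3% ± 4.77 (SD, n = 6), differed by 6.38 percentage points with p = 0.357 in a two-sided exact permutation test, and without day 0 replicate 3 the difference was -3.23. With IGF-1 the share was 34.4% ± 4.10 against 34.3% ± 4.77 without (n = 6 each, two-sided exact permutation p = 0.952, the smallest possible being 0.00216). Over all 12 differentiated libraries the share lay between 28.1% and 39.6%.

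The balance between both parts of the gene stood further towards the 3′ part in every later library than in any day 0 library. At day 0 the 3′ part held 45.8%, 45.8% and 30.4% of the STK39 reads, and in the 12 later libraries 51.0% to 72.3%. In pooled reads this was 40.8% of 71 reads at day 0 (exact 95% interval 29.3% to 53.2%), 58.0% of 1477 at untreated day 45 (55.4% to 60.5%) and 64.8% of 1153 at untreated day 90 (62.0% to 67.5%). The 5′ part held 59.2%, 40.3% and 33.5%. The intervals for the 3′ part cover counting error only and not the spread between cultures. Single libraries ran from 51.0% to 66.5% at untreated day 45 and from 61.4% to 72.3% at untreated day 90. Joins across both parts had 0 of 71 reads at day 0. Because the parts were drawn from these reads, the shift is given without a test, and it rests on 71 reads at day 0.

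**Figure D5:**
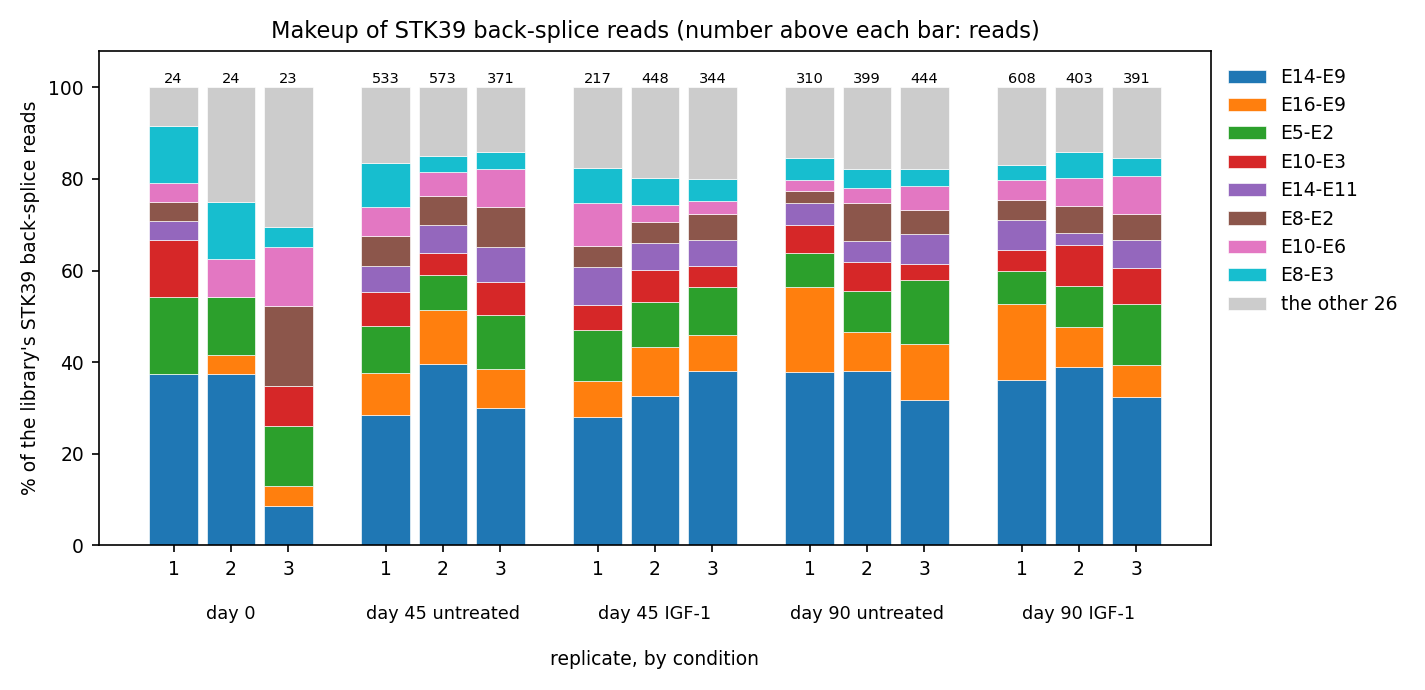
Share of STK39 back-splice reads held by each of the 8 most abundant back-splices and by the other 26, in each library, with the number of reads above each bar. E14-E9 holds 28.1% to 39.6% of the reads in the 12 later libraries, and day 0 bars rest on 23 or 24 reads each.

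The pathway around SPAK was described by the circRNAs of its other genes. Of 19 listed genes of the WNK to cotransporter pathway, 11 had back-splice reads in the table used here and 10 could be tested. By edgeR 6 of the 10 were higher at day 45 than at day 0 and 5 at day 90, with 0 lower, so that the share called was close to the 63.5% and 45.4% of all genes called higher. Their median log2 change was 2.95 at day 45 and 2.41 at day 90 (all genes 2.81 and 2.14). RELL1, a RELT family membrane protein, had the most reads of the list (642), with a log2 change of 2.91 ± 0.50 at day 45. SLC12A2, the sodium, potassium and chloride cotransporter that SPAK activates, had 167 reads with 3 of them at day 0. CUL3, the scaffold of a ubiquitin ligase that degrades WNK kinases, had 155 reads, with a log2 change of 2.23 ± 0.61 at day 45 and of 1.34 ± 0.64 at day 90, where it was not called (edgeR adjusted p = 0.071). OXSR1, the closest relative of STK39 and the other kinase between WNKs and cotransporters, was chosen after its values were seen and had 78 reads, with a log2 change of 0.55 ± 0.78 at day 45 that was not called (edgeR adjusted p = 0.524).

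Among 28 other Ste20 family kinases, 18 had back-splice reads here and 15 could be tested. Of these, 11 were higher than day 0 at day 45 and 11 at day 90 by edgeR, with 0 lower, beside 63.5% and 45.4% of all genes called higher. The median log2 change was 3.20 and 2.85 (all genes 2.81 and 2.14). STK3, a kinase of the Hippo pathway, had 814 reads and a log2 change of 2.62 ± 0.44 at day 45. PAK2, a p21-activated kinase, had 746 reads (3.59 ± 0.49), and MAP4K3 had 496 (2.99 ± 0.50). STK39 thus had more back-splice reads than any gene of both lists. At day 45 the fitted changes of KLHL3, PAK5 and STK10, named after their values were seen, were above the 4.44 of STK39, but all 3 genes had 0 reads at day 0, so their folds depend on the prior count and are not given. In neither list was a gene called for IGF-1 or between day 45 and day 90.

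Across the 12 differentiated libraries, the genes whose summed back-splice level was most like that of STK39 were HERPUD2 (Pearson r of 0.939 over 12 libraries), ABHD2 (0.936), FGD4 (0.915), N4BP2 (0.912) and ZNF568 (0.907). They were taken from 1168 genes with at least 200 reads, on log2(RPM + 0.05). The median r over those genes was 0.531, and r with the total back-splice level of a library was 0.699. Libraries share their depth and their total back-splice level, so these values describe likeness over 12 points and carry no test.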

How the data were processed

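Total RNA was depleted of ribosomal RNA and sequenced as stranded paired reads of 100 bases. The authors screened each library with PTESFinder v1 against GENCODE 19 transcripts on hg19 (settings m 7, segment size 60, PID 0.85 and JSpan 8), guided by known back-splice junctions, and deposited raw back-splice counts per structure and library, neither normalised nor pooled. Libraries were matched by name, taking the letters a to c as replicates 1 to 3. For each of the 55371 structures the library counts gave the deposited sum. Libraries held 14992 to 108946 back-splice reads.

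RPM was computed here as counts per 1000000 sequenced reads, with read numbers from the study's supplement. These do not tell apart untreated day 90 replicates 1 and 2, which were both given the mean. The count test was edgeR 4.0.16 (glmQLFit and glmQLFTest, R 4.3.3) in a single fit of 15 libraries, where each condition had its own mean and library size was the number of sequenced reads, with at least 10 summed counts, and Benjamini-Hochberg adjustment over all circRNAs (12498) or genes (4933) at 0.05. The SE of an edgeR log2 change was not estimated by the fit. It was worked back as the size of the change divided by the square root of the test's F value. The 95% intervals of log2 changes were built from this SE and are approximate. Shares were compared by exact permutation over libraries. Structures were given genes by GENCODE 44 lifted to GRCh37, and sequences were read from GRCh37, which has the chromosome 2 coordinates of hg19. Inverted matches were searched with blastn 2.17.0. Alternatives were other library sizes, filters, DESeq2 1.42.0, a replicate block, other day 90 read numbers and each replicate left out. Counting intervals are exact binomial at 95%, cover counting error only and treat reads as independent, which PCR copies are not.

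The members, lists and rules were chosen with earlier results of these data known, so the day 0 contrasts are no independent evidence. Named members were the 10 with the most reads and those called. Of each gene list the 3 genes with the most reads were named, and the 5 genes most like STK39. The test was checked on simulated counts with 200 changed circRNAs: for day 45 against day 0, 24.5% of 4-fold and 93% of 16-fold changes were found, with 0% and 2.11% of calls false. The 16-fold size was added after the 4-fold changes fell short of the share aimed for. Changed circRNAs were drawn from those with many reads, started from the same level in every condition and moved in both directions. Members with few reads at day 0, in a comparison where most circRNAs rise, differ from that setting. These rates therefore do not carry over to them. Linear STK39 RNA, canonical junctions and the FIRRE amplicon libraries were not analysed here, so a change of the rings and a change of the whole gene cannot be told apart.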

Additional observations from a re-analysis of the deposited data

How the results depend on the processing

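Counts of STK39 circRNAs called against day 0 moved with the library size: at day 45 from 16 to 10 with TMM on back-splice totals and to 5 with DESeq2 size factors, and at day 90 from 13 to 6 with DESeq2 size factors. With TMM the median log2 change of all circRNAs at day 45 went from 2.87 to 1.60, and with DESeq2 size factors to 1.24. With no filter 14 were called at day 45 and 12 at day 90, and DESeq2's Wald test called 14 and 12. Leaving out 1 replicate gave 13 to 16 and 11 to 13. The summed STK39 change between day 45 and day 90 (-0.52) turned to 0.16 with TMM and 0.21 with DESeq2 size factors, and that of E14-E9 (-0.40) to 0.17 and 0.28. The IGF-1 change at day 90 turned to -0.0482 for STK39 and -0.0412 for E14-E9 with DESeq2 size factors, and without day 90 IGF-1 replicate 1 to -0.0174 and -0.0184, with highest values over left out replicates of 0.44 and 0.49. None of these values was called. Leaving out 1 replicate moved the difference in the E14-E9 share between -3.23 and 11.2 percentage points against day 0 (the lowest without day 0 replicate 3) and between -1.03 and 1.38 for IGF-1. The STK39 share of back-splice reads kept a difference of 0.362 to 0.424, and the summed changes against day 0 kept 4.25 to 4.67 and 3.86 to 4.04. The cause was not tested.

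Over all pairs of conditions, same-numbered libraries showed no pairing: their deviations had a median correlation of -0.00415, over 0.1 in 1 of 30 pairs. Between untreated and IGF-1 libraries at day 45 the same-numbered pairs had 0.154, 0.0856 and 0.0716. Differently numbered pairs there had -0.130 to 0.0601, so pairing by number at day 45 remains possible. A fit with that block called 0 of 12498 circRNAs for IGF-1 at day 45. With the replicate number as a block, 16 and 13 members were called and the summed STK39 change was 4.42 and 3.94. At day 0, 23 or 24 STK39 reads per library limit every ratio.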
